A study of Mus musculus with 8 samples.

Results

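The Input libraries of an m6A-eCLIP experiment measured the RNA of αTC1-6 cells before an antibody selected it, and the 4 Input libraries were chosen here by their labels from the 8 libraries of the series. αTC1-6, an immortalized line of glucagon-producing alpha cells from mouse pancreas, was the source of all 8 libraries. The SCR group had received a scramble siRNA and held Input replicates 1 and 2, and the M14KD group had received an siRNA against Mettl14 and held Input replicates 3 and 4. The other 4 libraries were made from the RNA bound by the anti-m6A antibody (IP) and carry the same replicate numbers. The labels give neither the dose of siRNA nor the time after transfection, nor do they say that replicates were grown separately. The p-values therefore describe the spread among these libraries, which may be technical. The comparison asks which RNAs changed in amount when Mettl14 was reduced, apart from any change of their m6A.

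N6-methyladenosine, or m6A, is a methyl mark on adenosines inside messenger RNA. It is written by a complex in which METTL3 carries the catalytic activity and METTL14 holds the RNA and stabilizes its partner, and proteins that bind the mark can change the splicing, translation and decay of the RNA. Alpha cells secrete glucagon from dense-core granules and respond to amino acids in their surroundings. A shortage of amino acids or stress in the endoplasmic reticulum is known to activate the integrated stress response, in which kinases phosphorylate the initiation factor eIF2 and the transcription factor ATF4 then raises genes of amino acid uptake and synthesis.

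The deposited table held whole-number counts at 33774 sites for every library, of which 31927 (94.5%) lay inside the span of 1 named gene of the mm10 RefSeq annotation, in 6531 genes with a median of 3 sites. Summed Input counts ran from 3438530 to 3637740 a library, with a median of 31 to 34 counts per site, and CPM below are counts scaled to a library total of 1000000. The sites could not be placed in exons, introns or untranslated regions, and overlapping genes on opposite strands could not be told apart. Of all sites, 72.6% had another within 100 bases, so a sum over the sites of a gene may count a read more than once. Between replicates, the chi-square per degree of freedom over sites was 1.45 in SCR and 1.38 in M14KD, and between the groups it was 1.60 to 2.22. The first principal component of the Input libraries (44.6% of variance) put SCR replicate 2 at -15.1, SCR replicate 1 at -1.06, M14KD replicate 4 at 3.17 and M14KD replicate 3 at 13.0. Mitochondrially encoded sites took 27.5% to 27.9% of SCR counts and 26.2% to 26.7% of M14KD counts. These are bulk samples, in which fewer cells of a kind and less RNA per cell cannot be told apart.

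Mettl14 checks the labels. Over its sites the SCR Input libraries held 64 and 44 counts and the M14KD libraries 32 and 22, so that both M14KD libraries lay below both SCR libraries at 51.2% of the SCR level in CPM. The log2 fold change, given throughout as M14KD over SCR so that values above 0 are higher in M14KD, was -0.96 (SE 0.27, adjusted p = 0.26 by edgeR's quasi-likelihood test with Benjamini-Hochberg adjustment), which did not pass the threshold of 0.05. Wtap (0.10, SE 0.13) and Virma (0.09, SE 0.13), which belong to the same writer complex, overlapped between the groups, and Mettl3 had no site in the table. Of the alpha cell markers, Gcg, Ttr and Irx2 had sites. No marker of beta, PP, epsilon, acinar, endothelial, fibroblast or blood cells had a site, while Rbp4 of the delta cell list had 260 to 271 CPM in SCR and 245 to 265 CPM in M14KD, and Sox9 of the duct list had too few counts to be tested.

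Reads fell in M14KD at sites of Jund, Peg10, Slc7a5 and Lonp1, and rose at sites of Scg2, Manf, Id2, Hnrnpdl, Mkks and 1810037I17Rik. In all, edgeR called 28 of 30147 tested Input sites (0.0929%), 21 higher in 6 genes and 7 lower in 4 genes. The 4 genes with lower sites encode a transcription factor, a retrotransposon-derived protein, an amino acid transporter and a mitochondrial protease. Those with higher sites encode a granin, a secreted protein of the endoplasmic reticulum, an inhibitor of bHLH factors and an RNA-binding protein. Mkks among them encodes a chaperonin-like protein, and the product of 1810037I17Rik is not described here. Of the 28 sites 22 were also called by DESeq2, all of them in Scg2, Jund, Manf and Id2. The called sites of Hnrnpdl, 1810037I17Rik and Lonp1 missed the threshold in DESeq2. Those of Peg10, Slc7a5 and Mkks had no adjusted p in it.

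Jund encodes JunD, one of the AP-1 proteins. It spans chr8:70697739-70700616 and was called at 4 of its 15 tested sites. At position 70699794, where p was lowest, SCR libraries held 265 and 289 counts and M14KD libraries 169 and 156, and the site fell by 0.71 on the log2 scale (SE 0.12, adjusted p = 0.035 by edgeR). The 4 called sites lay within 38 bases and fell by 0.64 to 0.71. The other sites of the gene also had values below 0, down to a smallest difference of -0.17.

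Peg10 is imprinted and descends from a retrotransposon, and it spans chr6:4747306-4760517. Its called site at position 4758897 had 147 and 124 counts in SCR and 78 and 63 in M14KD, and fell by 0.88 (SE 0.17, adjusted p = 0.035 by edgeR). All 61 tested sites of Peg10 had values below 0, from -0.95 to -0.31 with a median of -0.58, and 55 had an unadjusted p under 0.05. Over all 30147 tested sites 2620 had such a p, which also stands beside the site counts of Slc7a5 and Scg2 below. Sites close together can hold the same reads, so these counts are not of independent tests.

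Slc7a5, the transport subunit of the LAT1 system for leucine and other large neutral amino acids, spans chr8:121881146-121907686. At position 121882606 it held 141 and 146 counts in the SCR libraries and 73 and 87 in the M14KD libraries, a fall of 0.78 (SE 0.16, adjusted p = 0.0372 by edgeR). Each of its 15 tested sites had a value below 0 and an unadjusted p under 0.05, with a median of -0.44. Lonp1, an ATP-dependent protease of the mitochondrial matrix, spans chr17:56614297-56626903 and had 258 and 254 counts in SCR against 171 and 158 in M14KD at position 56615075 (fell by 0.58, SE 0.12, adjusted p = 0.047 by edgeR).

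Scg2, which encodes the granule protein secretogranin II, held 13 of the 21 higher sites. The gene spans chr1:79434366-79440026, and at position 79436378 the SCR libraries held 654 and 658 counts (181 ± 0.03 CPM, SD, n = 2) and the M14KD libraries 954 and 849 (255 ± 12.0 CPM, SD, n = 2). That site rose by 0.52 (SE 0.09, adjusted p = 0.035 by edgeR). Its called sites were spread over 4665 bases, and all 22 tested sites had values above 0, from 0.37 to 0.52, each with an unadjusted p under 0.05.

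Manf, a secreted factor induced by endoplasmic reticulum stress, spans chr9:106888753-106891938 and rose at 3 of 7 tested sites, which lay within 7 bases. At position 106889090 it went from 388 and 381 counts to 545 and 505 (0.51, SE 0.10, adjusted p = 0.035 by edgeR). Id2, an inhibitor of bHLH transcription factors, spans chr12:25093799-25096092, and at position 25094499 it rose from 358 and 345 counts to 493 and 456 (0.49, SE 0.10, adjusted p = 0.039 by edgeR). Hnrnpdl, an RNA-binding protein of splicing, spans chr5:100033577-100039936, and at position 100034902 it rose from 206 and 203 counts to 329 and 264 (0.59, SE 0.12, adjusted p = 0.0372 by edgeR). At each of these sites both M14KD libraries lay above both SCR libraries, as they did in the last pair of genes. Mkks, a chaperonin-like protein of the basal body (chr2:136873780-136891406), went from 102 and 80 counts to 166 and 132 at position 136881546 (0.77, SE 0.16, adjusted p = 0.039 by edgeR). The gene 1810037I17Rik (chr3:122924397-122926194) went from 185 and 199 counts to 305 and 247 at position 122925532 (0.58, SE 0.12, adjusted p = 0.047 by edgeR). The groups did not overlap at any of these 10 named sites, but a call with 2 libraries a group largely requires this, so it adds no support. No site remained called without M14KD replicate 3 or without M14KD replicate 4, and the count was 4 without SCR replicate 2 and 40 without SCR replicate 1.

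**Figure D1:**
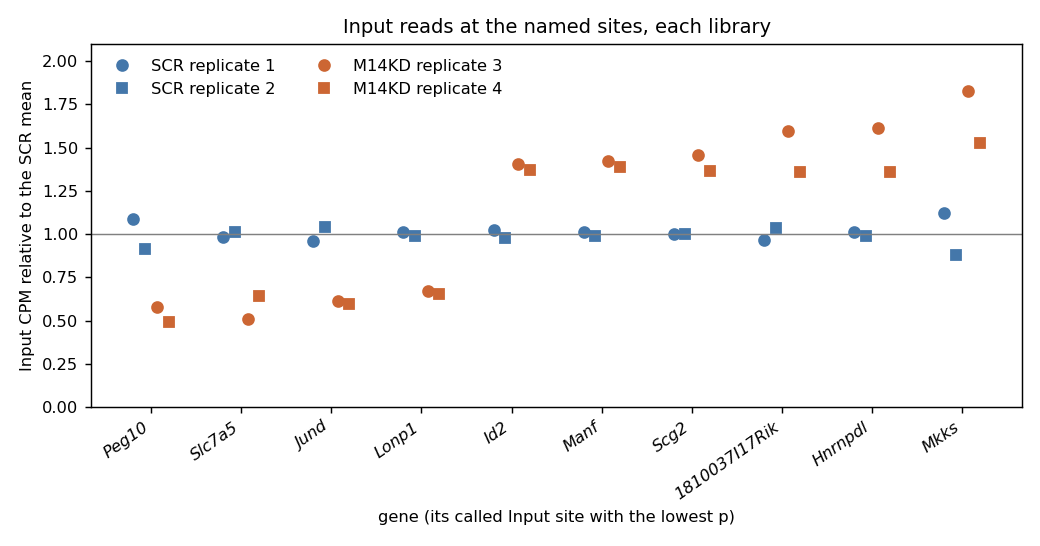
Input CPM of each library in 10 genes, each at its called site of lowest p, divided by the mean of the SCR libraries at that site (vertical axis, no unit, starting at 0). Points are single libraries: at Peg10, Slc7a5, Jund and Lonp1 both M14KD libraries lie below both SCR libraries, and at the other genes both lie above.

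In Scg2, Peg10, Jund and Slc7a5 all tested sites lay on 1 side of 0, as the plot of site values along these 4 genes shows. Of 843 genes with at least 10 tested sites, 42 had all values below 0 and 34 all above, 9.02% in all. Peg10, Jund and Slc7a5 belong to the former and Scg2 to the latter. Neighbouring sites can hold the same reads, so they are not independent measurements. Thinning to 1 site per 100 bases left 13 called sites.

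**Figure D2:**
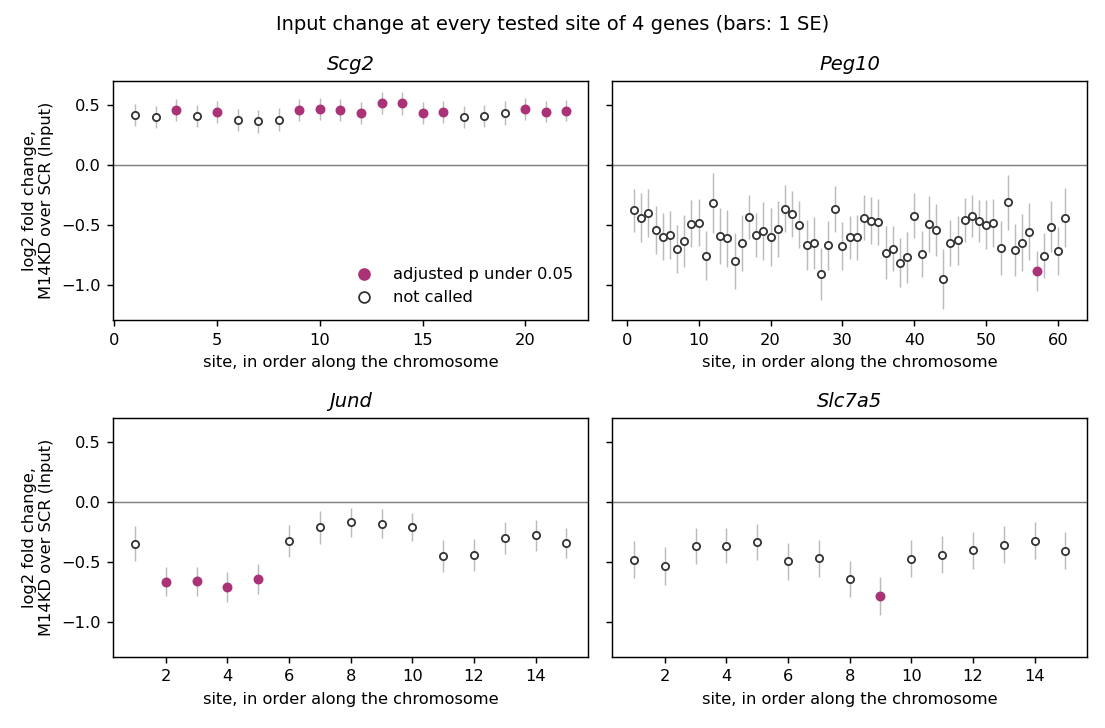
Log2 fold change of M14KD over SCR in Input at every tested site of Scg2, Peg10, Jund and Slc7a5, in order along the chromosome; bars are 1 SE and filled points have an adjusted p under 0.05. All 22 Scg2 sites lie above 0, and all 61 Peg10, 15 Jund and 15 Slc7a5 sites lie below.

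Summed over sites, several genes of amino acid metabolism and of the stress response had lower Input values in M14KD, and the granin Scg2, transthyretin and glucagon had higher ones, but no gene passed in edgeR. It called 0 of 5826 genes (0%), with a lowest adjusted p of 0.0678, and 594 had an unadjusted p under 0.05: 312 lower (5.36%) and 282 higher (4.84%). DESeq2, which gave an adjusted p for 1461 genes, called 23 (1.57%), 10 higher and 13 lower. Its calls were Scg2, Manf, Med21, Id2, Hnrnpdl, Uqcrh, Bex2, Tceal9, Snrpd3 and Ttr among the higher and Peg10, Slc7a5, Jund, Ywhag, Aldh1l2, Cep170b, Aldh18a1, Nkx2-2, Lonp1, Asns, Eef1a1, Pck2 and Hcn2 among the lower. When each gene was summed over 1 site per 100 bases, edgeR called 12 genes, 11 of them lower, and 10 of the 12 were also called by DESeq2. Vgf and Reep6 were the other two, of which Vgf had no adjusted p in DESeq2.

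Most differences were small. The median SE was 0.14 among the 4172 genes with a mean count of at least 50, and of these 12 lay beyond 1.5-fold lower and 16 beyond 1.5-fold higher. Both M14KD libraries lay below both SCR libraries in 1232 genes (21.1%) and above both in 1150 (19.7%). The median log2 fold change of all tested genes was near 0, at -0.003.

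Among the 10 lower genes with the smallest p, Peg10 had 5294 and 4186 counts in SCR and 3151 and 2948 in M14KD (-0.60, SE 0.10, adjusted p = 0.0899 by edgeR). Vgf, the precursor of several granule peptides, had 150 and 159 counts against 88 and 83 (-0.81, SE 0.16), the largest difference of these genes. Ywhag, a 14-3-3 adaptor protein, had 2769 and 2973 against 2179 and 2071 (-0.39, SE 0.08). Nkx2-2, a homeodomain factor of islet cells, had 874 and 831 counts in SCR and 576 and 617 in M14KD (-0.47, SE 0.10), and 21 of its 22 tested sites lay below 0. Cep170b, a relative of a centrosomal protein, had 871 and 957 counts against 639 and 630 (-0.49, SE 0.10). The groups of these genes were separate in every case, as the rule for naming them required.

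Among the 10 higher genes with the smallest p, Scg2 had 14766 and 15251 counts in SCR and 20085 and 18956 in M14KD (0.42, SE 0.06, adjusted p = 0.0678 by edgeR). Ttr, which encodes the thyroid hormone and retinol carrier transthyretin, had 34661 and 34966 against 41464 and 39262 (0.25, SE 0.06). Med21, a subunit of the Mediator complex, had 918 and 893 against 1283 and 1075 (0.42, SE 0.09). Less abundant genes showed larger values with larger errors. Tasor2, a relative of a subunit of the HUSH silencing complex, had 183 and 133 counts against 287 and 216 (0.71, SE 0.17), Cep55, a protein of cell abscission, 179 and 178 against 270 and 241 (0.56, SE 0.13), and Ube2n, a ubiquitin-conjugating enzyme, 216 and 213 against 304 and 291 (0.51, SE 0.12). The gene 0610009B22Rik had 154 and 161 against 222 and 241 (0.60, SE 0.14).

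In the promoters of the genes with higher values, the cAMP response element was looked for, through which CREB is known to act on granin genes. The exact letters TGACGTCA, which read the same on both strands, lay in the 250 bases before the start of 166 of 4709 tested genes with a promoter in the RefSeq table of GRCm38.p6 (3.53%). They lay there in 2 of 7 matched genes with a called site, Scg2 and Mkks, and in 2 of 8 matched genes among the 10 higher ones, Scg2 and Med21. The 60 bases around each match are shown 5′ to 3′ on the strand of the gene, with the match in capitals.
Scg2, chr1:79440061-79440120, minus strand: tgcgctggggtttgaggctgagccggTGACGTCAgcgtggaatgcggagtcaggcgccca
Mkks, chr2:136891521-136891580, minus strand: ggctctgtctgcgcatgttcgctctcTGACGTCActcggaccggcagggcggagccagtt
Med21, chr6:146642422-146642481, plus strand: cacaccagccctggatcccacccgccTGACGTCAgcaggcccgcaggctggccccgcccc
A match is a description of these letters and not a site of binding. None of 6 matched genes among the 10 lower ones held it.

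Most tested enzymes that make amino acids and carry one-carbon units had lower Input values in M14KD. Of 17 tested genes of this list, 11 had an unadjusted p under 0.05 and a lower value, and none a higher one, beside 5.36% lower among all genes. Both M14KD libraries lay below both SCR libraries in 13 of the 17 (21.1% of all genes), and the list median was -0.21 against -0.003 for all genes. DESeq2 gave an adjusted p for 10 of them and called 4, beside 1.57% of all genes with such a p, and edgeR called none. The number lower at an unadjusted p under 0.05 was 5 and 6 when M14KD replicates 3 and 4 were left out in turn, and 10 and 6 when SCR replicates 1 and 2 were. Over all genes it went from 312 to 115, 241, 361 and 195 in the same order. The list median stayed below 0 each time, from -0.34 without M14KD replicate 4 to -0.13 without SCR replicate 2.

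Aldh1l2, a mitochondrial enzyme of folate metabolism, had 468 and 506 counts in SCR and 327 and 282 in M14KD (-0.64, SE 0.11, adjusted p = 0.116 by edgeR). Aldh18a1, which starts proline synthesis, had 3190 and 3540 against 2588 and 2473 (-0.37, SE 0.08), with all 21 tested sites below 0. Asns, asparagine synthetase, had 2867 and 3023 against 2287 and 2238 (-0.34, SE 0.08). Pck2, the mitochondrial phosphoenolpyruvate carboxykinase, had 802 and 992 counts against 646 and 619 (-0.46, SE 0.11). In the serine pathway, Psph, the phosphatase of its last step, had -0.56 (SE 0.13), Shmt2, the mitochondrial serine hydroxymethyltransferase, -0.28 (SE 0.11), and Psat1, the aminotransferase, -0.21 (SE 0.09). The aminotransferases Gpt2 (-0.55, SE 0.18), Got1 (-0.18, SE 0.08) and Got2 (-0.19, SE 0.08) also had both M14KD libraries below both SCR libraries. Mat2a, which makes S-adenosylmethionine (0.07, SE 0.17), lay within 2 SE of 0.

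Amino acid transporters had 3 lower genes of 15 tested at an unadjusted p under 0.05 (5.36% of all genes) and none higher, and 7 of 15 had both M14KD libraries below both SCR libraries (21.1% of all genes). The median was -0.19, and -0.11 without M14KD replicate 3. DESeq2 called Slc7a5 alone among the 9 for which it gave an adjusted p (1.57% over all genes), and edgeR none. Slc7a5 had 1955 and 2271 counts in SCR and 1450 and 1506 in M14KD (-0.47, SE 0.09). The cationic amino acid transporter Slc7a1 had 474 and 545 against 359 and 341 (-0.50, SE 0.11), and all 11 of its tested sites lay below 0. Slc38a10 had -0.27 (SE 0.10). The glycine transporter Slc6a9 had 41 and 54 counts against 30 and 40, without overlap in counts but with overlap in CPM (-0.40, SE 0.26).

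Aminoacyl-tRNA synthetases, which charge tRNAs with amino acids, had 4 lower genes of 13 at an unadjusted p under 0.05 (5.36% of all genes) and none higher. Aars had 1227 and 1400 counts in SCR and 990 and 1019 in M14KD (-0.35, SE 0.09), Gars 3976 and 4320 against 3495 and 3298 (-0.25, SE 0.07), and Sars 3694 and 4168 against 3152 and 3208 (-0.27, SE 0.08). Wars, the fourth, had -0.34 (SE 0.14). The list median was -0.06, and it was -0.02 without M14KD replicate 4 and -0.11 when either M14KD replicate 3 or SCR replicate 2 was left out. Fewer synthetases were lower at an unadjusted p under 0.05 without M14KD replicate 3, M14KD replicate 4 or SCR replicate 2, as over all genes.

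Several genes of the integrated stress response had lower Input values in M14KD. Of 18 tested, 7 were lower at an unadjusted p under 0.05 (5.36% of all genes) and none higher, and 10 had both M14KD libraries below both SCR libraries (21.1% of all genes). The median was -0.27, and -0.12 without M14KD replicate 3. No member was called by edgeR, nor by DESeq2 among the 7 for which it gave an adjusted p, which leave out Trib3, Atf3, Chac1 and Ddit3. Trib3, a pseudokinase that restrains the response, had 238 and 249 counts in SCR and 147 and 144 in M14KD (-0.70, SE 0.13, adjusted p = 0.116 by edgeR). Atf3, a transcription factor induced by stress, had 40 and 48 against 27 and 23 (-0.77, SE 0.26). Chac1, which degrades glutathione, had 212 and 222 against 155 and 143 (-0.50, SE 0.13). Sesn2, a leucine sensor that restrains mTORC1, had 721 and 724 counts against 570 and 500 (-0.39, SE 0.10), and all 12 tested sites lay below 0. Eif4ebp1 (-0.35, SE 0.09), a repressor of translation, Ddit3 (-0.43, SE 0.17), the factor CHOP, and Ppp1r15b (-0.31, SE 0.12), a subunit of an eIF2 phosphatase, completed the 7. Atf4 had 3436 and 3882 counts in SCR and 3291 and 3161 in M14KD, a smaller difference of -0.14 (SE 0.08). The eIF2 kinase genes Eif2ak1 (0.10, SE 0.17) and Eif2ak3 (0.07, SE 0.15) overlapped between the groups. The number lower was 4 without SCR replicate 2, when 195 of all genes were lower, and 10 without SCR replicate 1, when 361 were.

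**Figure D3:**
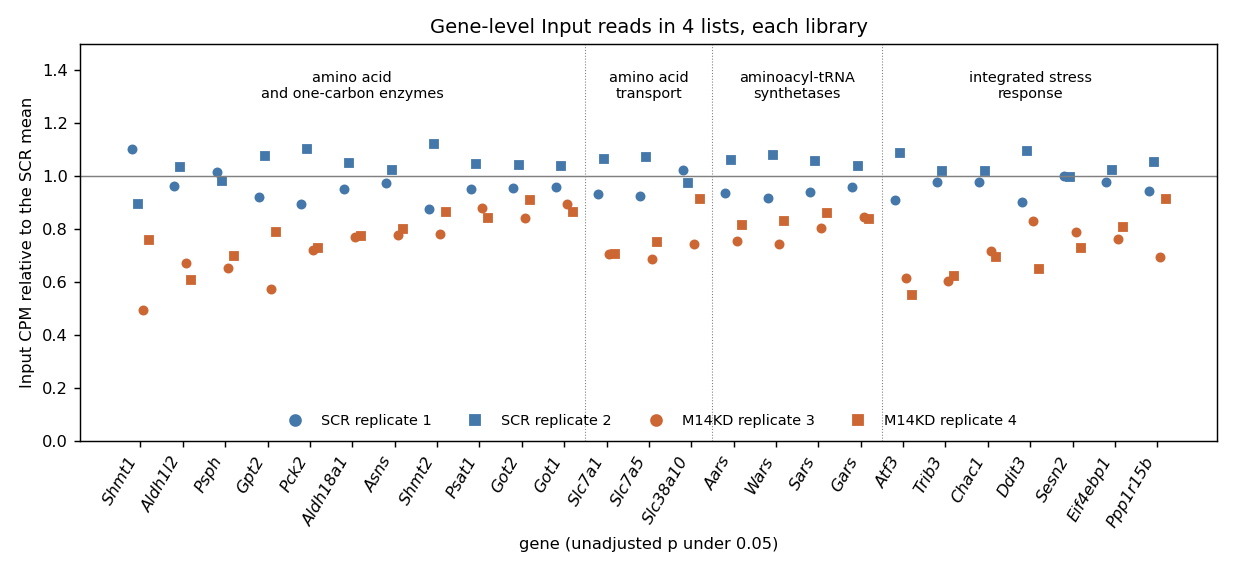
Gene-level Input CPM of each library relative to the SCR mean (vertical axis, starting at 0) for the 25 members of 4 lists with an unadjusted p under 0.05. All were lower in M14KD, and in each gene both M14KD points lie below both SCR points.

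ATF4 is known to bind the C/EBP-ATF composite element, whose core TGATGCAA was searched on both strands of the same promoters. The letters lay in 32 of 4709 tested genes with a promoter (0.68%) and in 260 of all 32851 promoters (0.79%). They lay in 4 of 16 matched stress response genes (Atf3, Chac1, Nupr1 and Vldlr), in 2 of 8 synthetases (Aars and Tars), in 1 of 14 amino acid enzymes (Got1) and in 0 of 11 amino acid transporters. In each window below the match is on the opposite strand and so reads as its reverse complement, in capitals.
Atf3, chr1:191183410-191183469, minus strand: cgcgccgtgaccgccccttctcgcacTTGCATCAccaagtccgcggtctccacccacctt
Chac1, chr2:119351023-119351082, plus strand: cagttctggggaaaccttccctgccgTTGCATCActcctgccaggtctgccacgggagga
Nupr1, chr7:126625547-126625606, minus strand: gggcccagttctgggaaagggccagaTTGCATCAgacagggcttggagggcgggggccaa
Got1, chr19:43524674-43524733, minus strand: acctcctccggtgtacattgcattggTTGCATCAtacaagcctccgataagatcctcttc
Tars, chr15:11399659-11399718, minus strand: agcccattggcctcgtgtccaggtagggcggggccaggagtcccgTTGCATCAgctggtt
The genes with these letters differed among themselves. Nupr1, a small stress-induced chromatin protein, had 377 and 430 counts in SCR and 328 and 343 in M14KD (-0.23, SE 0.12), with both M14KD libraries below both SCR libraries, and Tars had 75 and 61 against 68 and 74 (0.10, with overlapping groups). The AP-1 letters TGAGTCA or TGACTCA lay in 3.33% of tested genes and in 1 of 16 stress response genes, Ddit3.

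As a list, chaperones of the endoplasmic reticulum did not share the lower values. Of 20 tested genes 3 were higher at an unadjusted p under 0.05 (4.84% of all genes) and none lower. The median was 0.04 (0.08 without M14KD replicate 3 and 0.09 without SCR replicate 2). Values lay below 0 in 9 genes and above 0 in 11. Both M14KD libraries lay below both SCR libraries in 5 (21.1% of all genes) and above both in 9 (19.7%). Manf had 2606 and 2689 counts in SCR and 3434 and 3218 in M14KD (0.37, SE 0.07). Pdia3, a protein disulfide isomerase, had 0.26 (SE 0.09) and Hspa5, the chaperone BiP, 0.21 (SE 0.09), while Pdia4 had 0.06 (SE 0.08). Without M14KD replicate 3 fewer genes of the list were higher at an unadjusted p under 0.05, as over all genes.

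Insulin, IGF and mTOR signalling had 6 lower genes of 20 (5.36% of all genes) and 1 higher (4.84%) at an unadjusted p under 0.05, with a median of -0.15. Irs2, the insulin receptor substrate, had 6568 and 6727 counts in SCR and 5647 and 5643 in M14KD (-0.20, SE 0.07), and 58 of its 68 tested sites lay below 0. Grb10, an imprinted adaptor that inhibits the receptor, had -0.28 (SE 0.08), Eif4ebp2 -0.36 (SE 0.10), the phosphoinositide 3-kinase subunit Pik3r2 -0.35 (SE 0.14) and Tsc1 -0.37 (SE 0.16). The other lower gene was Eif4ebp1, which is also counted in the stress response list. Rps6kb1, the S6 kinase, had the higher value, with 39 and 39 counts against 56 and 63 (0.65, SE 0.22). The number lower fell without M14KD replicate 3 and without SCR replicate 2, as it did over all genes.

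Lipid genes of the cholesterol and fatty acid list had 4 lower of 28 at an unadjusted p under 0.05 and none higher, with a median of -0.12. The share lower among all genes, 5.36%, also stands beside the counts of the next 2 lists. Scd2, a fatty acid desaturase, had 4204 and 3611 counts in SCR and 3177 and 3074 in M14KD (-0.28, SE 0.08). Fasn, fatty acid synthase, had 345 and 397 against 287 and 259 (-0.40, SE 0.12), and Fads1, another desaturase, had -0.22 (SE 0.10). Ion channels and pumps had 4 lower of 15, among them the pacemaker channel Hcn2 (-0.37, SE 0.09), the calcium pump Atp2a2 (-0.25, SE 0.09) and the potassium channel Kcnh2 (-0.27, SE 0.12). Chromatin regulators had 4 lower of 39, among them Chd4 (-0.26, SE 0.10), Hdac4 (-0.41, SE 0.17) and Kmt2d (-0.36, SE 0.15). Without M14KD replicate 3 the number of lower genes fell in the lipid, channel and chromatin lists, as it did over all genes. Without M14KD replicate 4 it fell in the lipid and channel lists, and without SCR replicate 2 in the lipid list, again as over all genes. Without SCR replicate 1 it fell in the channel list, while the number over all genes rose.

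Splicing factors and nuclear-encoded subunits of the respiratory chain had more higher values. Of 32 splicing and polyadenylation genes 6 were higher at an unadjusted p under 0.05 (4.84% of all genes) and none lower. In 16 both M14KD libraries lay above both SCR libraries (19.7% of all genes). The median was 0.15, and it ran from 0.10 without SCR replicate 2 to 0.22 without M14KD replicate 4. Hnrnpdl had 733 and 673 counts in SCR and 1034 and 834 in M14KD (0.45, SE 0.10), Hnrnpm 996 and 880 against 1197 and 1088 (0.32, SE 0.09), and Luc7l3 81 and 54 against 105 and 105 (0.68, SE 0.20). Srsf5 (0.31, SE 0.11), Srsf11 (0.25, SE 0.10) and Hnrnpu (0.24, SE 0.10) were the other 3. The number higher fell without M14KD replicate 3 and without SCR replicate 2 and rose without SCR replicate 1, as the number over all genes did.

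Of 51 respiratory chain genes 39 had values above 0, 25 had both M14KD libraries above both SCR libraries (19.7% of all genes) and 10 were higher at an unadjusted p under 0.05 (4.84% of all genes), with none lower. Their median was 0.11, and 0.06 without SCR replicate 1. Uqcrh, a hinge subunit of complex III, had 2821 and 2809 counts in SCR and 3384 and 3363 in M14KD (0.30, SE 0.07). Ndufaf4, an assembly factor of complex I, had 496 and 398 against 566 and 586 (0.41, SE 0.12), and Cox7b, a subunit of complex IV, had 2125 and 2033 against 2578 and 2222 (0.25, SE 0.08). The number higher fell without M14KD replicate 3 and without M14KD replicate 4, as it did over all genes. It also fell without SCR replicate 1, while the number over all genes rose. The mitochondrially encoded genes did not share this direction. Of 7 tested, 5 had values below 0, and COX1, a core subunit of complex IV, had 281003 and 308271 counts against 261954 and 239351 (-0.19, SE 0.06).

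**Figure D4:**
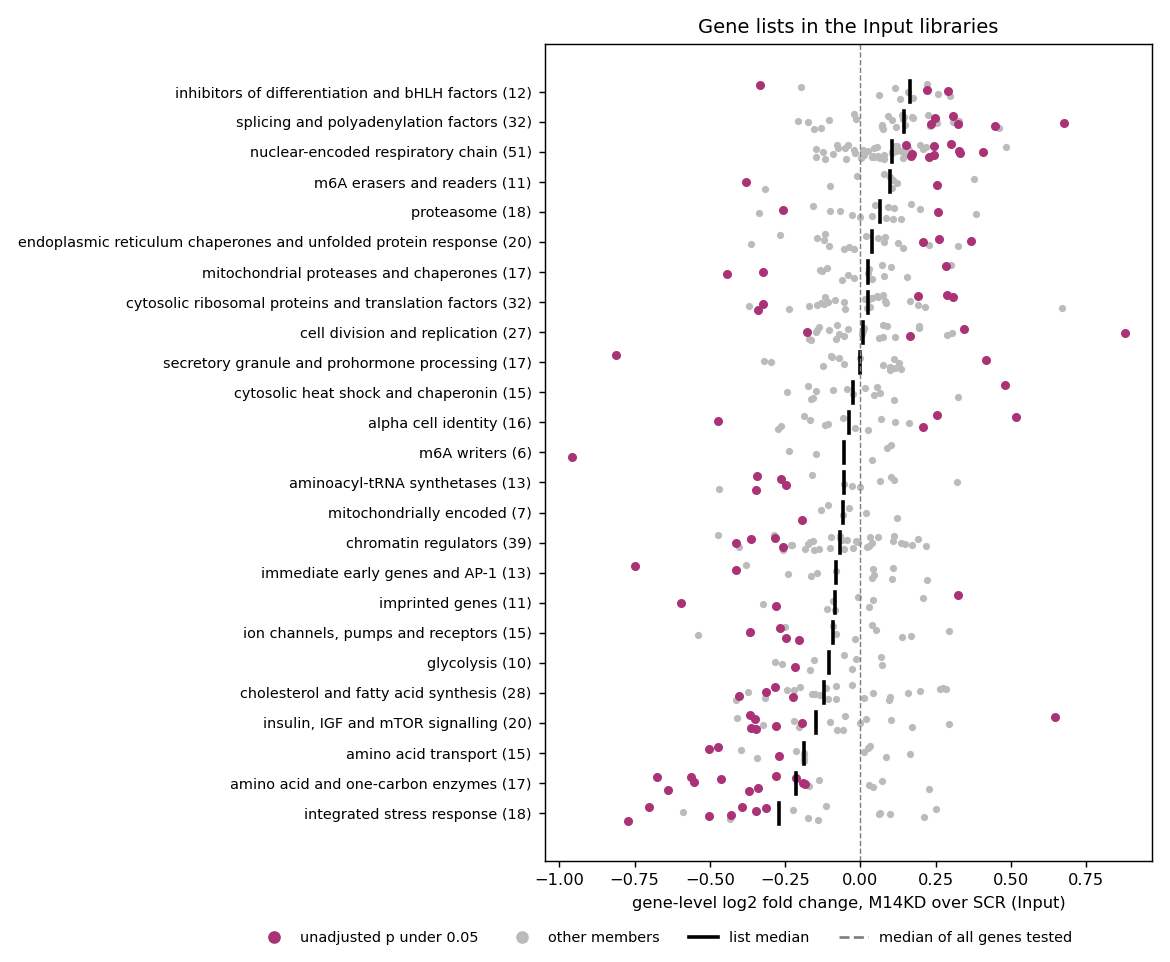
Gene-level Input log2 fold change (horizontal axis) of the tested members of 25 gene lists, ordered by median, with the number tested in brackets. Purple points have an unadjusted p under 0.05, black bars are list medians and the dashed line is the median of all tested genes; the stress response and amino acid lists lie lowest, and the bHLH, splicing and respiratory chain lists highest.

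The remaining lists had few members with small p in either direction, and their counts of 0 to 3 changed by at most 3 when a library was left out. Over all genes 5.36% were lower and 4.84% higher at an unadjusted p under 0.05, and these shares stand beside every count below. Counts near them, as in the translation and proteasome lists, say nothing particular about a list. Alpha cell identity genes had 1 lower (Nkx2-2) and 3 higher of 16. The higher ones were Gcg, with 186450 and 175933 counts in SCR and 209575 and 197369 in M14KD (0.21, SE 0.05), and Ttr. Rfx6, an islet transcription factor, was the third, with 54 and 63 against 80 and 83 (0.52, SE 0.19). Gcg had all 23 tested sites above 0. In the granule list Scg2 was higher and Vgf lower, while chromogranin A, Chga (0.10, SE 0.06), and the processing protease Pcsk2 (0.07, SE 0.07) differed by less than 2 SE. The immediate early list had Jund (-0.41, SE 0.08) and the nuclear receptor Nr4a1, with 25 and 39 counts against 23 and 14 (-0.75, SE 0.34), as its lower genes of 13. Of 12 bHLH and inhibitor genes, Id2 (0.29, SE 0.07) and Id3 (0.22, SE 0.07) were higher and Tcf3, a bHLH factor that such inhibitors bind, was lower (-0.33, SE 0.15), at -0.11 without M14KD replicate 3 and -0.57 without M14KD replicate 4. Among imprinted genes Peg10 and Grb10 were lower and Zim1, a zinc finger gene, higher (0.32, SE 0.11), with all 44 of its tested sites above 0. Among 11 genes of proteins that read or remove m6A, Prrc2a was lower (-0.38, SE 0.11) and Hnrnpa2b1 higher (0.26, SE 0.09). Translation genes had Eef1a1, an elongation factor (-0.34, SE 0.08), and Eif3b (-0.32, SE 0.13) lower and Rpl36al (0.31, SE 0.09), Rpl41 (0.19, SE 0.07) and Rps19bp1, which is not a ribosomal protein, higher of 32. Mitochondrial proteases and chaperones had Lonp1 (-0.44, SE 0.09) and prohibitin, Phb (-0.32, SE 0.10), lower and the import receptor Tomm70a (0.28, SE 0.10) higher of 17. Cell division genes had Mcm3 lower and Kif20b, Cdkn2c and Mki67 higher of 27, and Mki67 overlapped between the groups (967 and 638 counts against 1118 and 869). Hk1, which starts glycolysis, was lower among 10 glycolysis genes, Psmd3 lower and Psmd12 higher among 18 proteasome genes, and Mkks higher among 15 heat shock and chaperonin genes. Long noncoding RNAs and interferon genes had 3 and 4 tested members, none with an unadjusted p under 0.05, and replication-dependent histones had no site.

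The Input values were then set beside those of the IP libraries, which measure the same genes after selection by the antibody. Several genes with low p in Input had IP values of like size: the log2 fold change of IP was 0.42 (SE 0.06) in Scg2, -0.48 (SE 0.10) in Peg10, -0.31 (SE 0.07) in Jund, -0.56 (SE 0.08) in Slc7a5, -0.64 (SE 0.10) in Trib3 and -0.80 (SE 0.09) in Vgf. The IP and Input libraries of 1 number are not independent, since their deviations from the group mean correlated at 0.46 in SCR and 0.31 in M14KD over 4172 genes. In a model of all 8 libraries, edgeR called 0 of 6379 genes (0%) for a difference between the IP change and the Input change, with 168 at an unadjusted p under 0.05 and a lowest adjusted p of 0.999, and DESeq2 called 0. With the replicate number as a block, which pairs the IP and Input libraries, edgeR also called 0, with 421 at an unadjusted p under 0.05. A p that misses the threshold does not show that the changes were equal. In the model without the block, the IP change minus the Input change had SEs of 0.08 in Scg2, 0.15 in Peg10, 0.11 in Jund and 0.13 in Slc7a5, around values of -0.01, 0.10, 0.09 and -0.10.

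Some genes with an unadjusted p under 0.05 by edgeR in Input, none of them called by edgeR at gene level, had IP values near 0. They were picked for their Input values, and none was called for a difference between the IP and the Input change. Hnrnpdl had 0.45 (SE 0.10) in Input and 0.03 (SE 0.12) in IP, and Luc7l3 had 0.68 (SE 0.20) and -0.04 (SE 0.17). The smallest unadjusted p of the difference in each direction belonged to Rxylt1, a glycosyltransferase, Zfp207 and Stard3, in which IP minus Input was -0.60 (SE 0.17), -0.42 (SE 0.13) and -0.56 (SE 0.18), and to Adprhl2, Pgm5 and Dffb, in which it was 0.58 (SE 0.17), 0.71 (SE 0.22) and 0.58 (SE 0.19). Rxylt1 had 152 and 162 Input counts in SCR and 222 and 227 in M14KD, with an Input value of 0.56 (SE 0.13) and an IP value of -0.03 (SE 0.11). List medians in IP were -0.20 for the amino acid enzymes, beside -0.21 in Input. Other lists differed more. The IP median was -0.20 for the stress response, beside -0.27 in Input, and -0.10 for amino acid transporters, beside -0.19. It was -0.26 for the synthetases, beside -0.06, and 0.07 for alpha cell identity, beside -0.04.

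**Figure D5:**
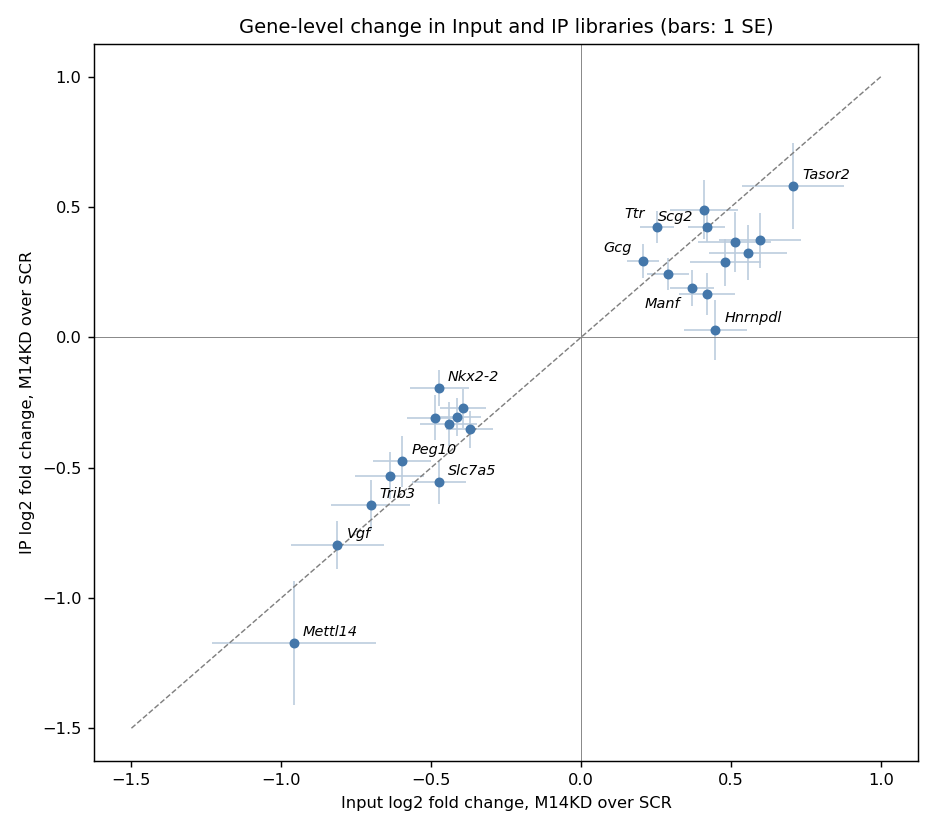
Gene-level log2 fold change of M14KD over SCR in Input (horizontal) and IP (vertical) for the genes named by their called site or lowest p, with Mettl14 and Gcg; bars are 1 SE and the dashed line marks equal values. Vgf, Trib3 and Peg10 lie near the line at the lower left, Scg2 at the upper right, and Hnrnpdl lies below it with an IP value of 0.03.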

How the data were processed

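Input and IP libraries of αTC1-6 cells were analysed from 1 deposited table. Per the submitters' processing notes, the authors used UMI-tools, cutadapt, STAR and mm10; versions, site calling, the counting window and whether the deposited counts are unique molecules were not given in the sources used here. The table had 0 unused columns. Sites took the name of the 1 protein-coding RefSeq span that held them, or else of 1 other gene; 1272 sites in several coding genes and 561 in none were not named.

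Input M14KD was compared with SCR by edgeR 4.0.16 (filterByExpr, TMM, quasi-likelihood F-test, R 4.3.3), adjusted by Benjamini-Hochberg over all tested sites or genes, threshold 0.05. Standard errors were the size of the log2 fold change divided by the root of F. The Input tests of sites and genes were checked on simulated counts; the IP minus Input test was not. DESeq2 1.42.0, other scalings and filters, 1 site per 100 bases and each library left out were alternatives. Same-numbered Input and IP libraries deviated together, so the number pairs them; SCR and M14KD share no number.

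Members and gene lists were chosen with earlier results of these data known. Named genes were Mettl14, Mettl3, Gcg, genes with a called site, the 10 with the lowest p each way (mean count at least 50, groups apart), up to 4 such members a list, and 3 each way for IP minus Input; other list members were named after their values were seen. A few genes of the lists are not reported here.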

Additional observations from a re-analysis of the deposited data

How the results depend on the processing

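Of 28 called sites in the comparison of Input libraries, the number was 7 with upper-quartile scaling, 0 with no filter on low counts, 49 with a mean count of at least 20 and 13 with 1 site per 100 bases, and it ran from 0 to 40 when 1 library was left out. DESeq2 called 34, DESeq2 size factors in edgeR gave 24, column totals 30 and the model of all 8 libraries 28. Higher sites were 75% of calls, 28.6% with upper-quartile scaling, 85.3% with DESeq2 and 50% without SCR replicate 1. At gene level the number of calls was 0, and it was 23 with DESeq2, 12 with 1 site per 100 bases and 1 (Scg2) with upper-quartile scaling, column totals, all 8 libraries, a mean count minimum of 20 or sites in 1 gene span only. Leaving out 1 library gave 0 to 34 gene calls, 34 without SCR replicate 1 and 2, Peg10 and Scg2, without SCR replicate 2. The cause of these shifts was not tested. For IP minus Input 0 genes were called in every setting run, the replicate block included; the paired fit with the replicate block was not possible in Input alone, whose groups share no number. Over 85 named gene values and 1187 alternative values none changed sign. This was nearly fixed in advance, since the naming rules largely required groups that did not overlap. Leaving out 1 library cannot reverse such a value at a fixed scaling, so the constant sign is no measure of robustness. Leaving out 1 library moved 28 of the 85 by over 1.5 times, as in Nr4a1 (-1.10 to -0.38), Slc38a10 (-0.41 to -0.12) and Prrc2a (-0.56 to -0.20). With 1 library left out, the lone library of a group is assumed to vary like the other group. The median SE was 0.25 for a site and 0.17 for a gene, so with 2 libraries a group small changes cannot be seen, and all scalings use site counts alone.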

Other observations

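Input differences varied a little with the length of the gene span. Among the 4172 genes with a mean count of at least 50, the median log2 fold change was 0.04 in the 835 genes with spans up to 7385 bases and -0.05 in the 835 genes with spans of 58713 bases or more. Of 2211 genes with at least 5 tested sites, 153 had all site values below 0 and 212 all above, 16.5% in all.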
